A study of Mus musculus with 49 samples.

Results

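The 10 genes described here are the enzymes of de novo fatty acid synthesis in white fat, Acly, Acaca, Fasn, Scd1, Scd2, Elovl6, Me1 and Acss2, together with the lipogenic protein gene Thrsp and the transcription factor gene Srebf1. They were taken by symbol from the 22869 gene symbols present in all 5 deposited tables, with the transcript of the highest total kept for each. RNA-seq of white adipose tissue was compared between 2 inbred mouse strains, C57BL/6 (C57) and 129S1/SvImJ (129). In the first experiment epididymal fat (eWAT) was compared in 5 C57 and 5 129 libraries from mice on standard rodent chow, whose age is not stated in the labels. In the second, mice of both strains ate the low fat diet D12450B from 6 to 16 weeks of age. They then received either the same diet (control) or that diet with 36 mg/kg of the PPARγ agonist rosiglitazone for 2 weeks, and eWAT was taken at 18 weeks, with 4 libraries per strain and diet. In the third experiment eWAT came from mice on the same low fat diet for 12 weeks (5 C57 and 4 129 libraries). In the fourth, inguinal fat (iWAT) was taken on that diet, with 4 libraries per strain. The age of the 12-week mice is not stated in the labels, and whole tissue was sequenced in every group, so fewer adipocytes and less RNA per adipocyte cannot be told apart.

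Fatty acid synthesis starts when ATP citrate lyase (Acly) splits cytosolic citrate into acetyl-CoA, to which acetyl-CoA synthetase (Acss2) adds acetyl-CoA made from acetate. Acetyl-CoA carboxylase (Acaca) makes malonyl-CoA, fatty acid synthase (Fasn) builds palmitate with NADPH that comes in part from malic enzyme (Me1), Elovl6 lengthens palmitate to stearate, and the stearoyl-CoA desaturases Scd1 and Scd2 put in the first double bond. Thrsp is a small protein known to promote lipogenesis in fat and liver, and Srebf1 encodes SREBP-1, which binds sterol regulatory elements in many of these genes and in fat works beside ChREBP and LXR.

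The deposited values are whole-number normalized scores with a floor of 1, and libraries of an experiment share their highest values, so depth is unknown and differences are given as log2(value + 1). A gene was called where limma's p, adjusted over all 22869 genes by the Benjamini-Hochberg method, was under 0.05. The summed level of 9 adipocyte markers lay between 132705 and 230038 in 42 of the 43 libraries, with no marker at the floor. It was 26790 in 129 chow replicate 2, in which 6 epididymis markers summed to 130408. Epididymis markers also reached 33990 in 129 chow replicate 1, against 6 to 85 in the other libraries. Brown fat markers summed to 4962 in 129 iWAT replicate 4 and 5426 in C57 iWAT replicate 4, against 285 to 883 in the other iWAT libraries. Lymphocyte markers summed to 10071, 3688 and 3947 in 129 iWAT replicates 1 and 4 and C57 iWAT replicate 4, against 260 to 437 in the other iWAT libraries. Skeletal muscle markers reached 10300 in C57 12-week eWAT replicate 3. Library numbers run in blocks by group, that is by strain and also by drug and by depot. A library series therefore cannot be told apart from strain, drug or depot. The labels do not say that replicates were separate animals, and the p-values then measure only how these libraries spread, which may be technical.

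The promoters of Fasn, Thrsp and Acss2 are shown because these genes differed between the strains in opposite directions in 2 of the experiments on low fat diet. Each line gives the 250 bases before the RefSeq start site on GRCm38.p6, in the direction of the gene, with capitals marking CCAAT on either strand (CCAAT or ATTGG). The Fasn window is chr11:120824548-120824797 on the minus strand, the Thrsp window chr7:97417551-97417800 on the minus strand and the Acss2 window chr2:155517793-155518042 on the plus strand.
Fasn: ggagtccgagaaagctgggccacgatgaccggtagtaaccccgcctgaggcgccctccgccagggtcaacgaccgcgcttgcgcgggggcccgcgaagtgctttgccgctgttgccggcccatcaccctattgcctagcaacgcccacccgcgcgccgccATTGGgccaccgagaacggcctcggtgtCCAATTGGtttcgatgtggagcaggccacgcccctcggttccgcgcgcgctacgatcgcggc
Thrsp: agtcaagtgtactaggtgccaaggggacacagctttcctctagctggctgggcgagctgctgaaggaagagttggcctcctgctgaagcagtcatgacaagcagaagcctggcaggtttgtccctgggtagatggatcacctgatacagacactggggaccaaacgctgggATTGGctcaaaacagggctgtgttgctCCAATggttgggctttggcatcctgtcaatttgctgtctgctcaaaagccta
Acss2: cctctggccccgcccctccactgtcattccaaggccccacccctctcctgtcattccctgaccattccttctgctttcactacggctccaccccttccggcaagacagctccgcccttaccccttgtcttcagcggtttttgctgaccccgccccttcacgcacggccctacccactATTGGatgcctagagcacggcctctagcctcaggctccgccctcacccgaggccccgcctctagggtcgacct
RefSeq windows from 250 bases before to 50 after a start site were held for 8 of the 10 genes (11 windows), and none for Scd1 and Scd2. CCAAT, the letters bound by NF-Y, stood in 7 of the 11 windows and in 37.4% of all 32851 windows. Fasn held 3 of them, and 2 overlap on opposite strands as CCAATTGG, while Thrsp held 2 and Acss2 held 1. The GC box GGGCGG stood in 5 of 11 windows against 35.7% of all. The E-box CACGTG stood in none of the 11, against 7.15% of all, and the sterol element core TCACNCCA in none, against 4.36%. Both strands were searched, and no match says only that these letters are not in these windows.

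Scd1 was at the top of the scale. It held rank 1 of all genes in 40 of the 43 libraries and rank 5 or better in each. Its value was 231290 in all 16 libraries of the drug experiment and 267214 in all 17 libraries of the 12-week experiments, which is the shared highest value, so no difference could be seen there. On chow it was 145538, 110841, 110841, 145538 and 145538 in C57 and 145538, 67262, 145538, 145538 and 145538 in 129. The authors' deposited table gives log2 fold changes for Scd1 that these scores cannot show, with C57 over 129 at -1.02 on control diet (p = 9.84e-13), -0.60 in 12-week eWAT (p = 2.04e-04) and -0.77 in 12-week iWAT (p = 0.00509). For rosiglitazone over control the authors' deposited table gives 0.08 in C57 and 0.03 in 129. Fasn also lay near the top, at ranks 2 to 60, and several libraries carry the same Fasn value, such as 67869, so differences among high Fasn libraries are steps of the shared scale. Scd2 is a close copy of Scd1 and its neighbour on the genome, at chr19:44293676-44306864 against chr19:44394450-44407709 for Scd1 (GRCm38.p6). How reads shared by them were counted is not stated in the labels, so the Scd2 values are uncertain. Of the other genes, Acly, Acaca, Fasn and Srebf1 lie on chromosome 11.

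Per kilobase of transcript, the mean level in 12-week C57 eWAT was 55301 for Scd1, 8925 for Thrsp and 7149 for Fasn. Acly followed at 2941, Acss2 at 1145, Srebf1 at 1015, Scd2 at 877, Me1 at 770.1, Acaca at 565 and Elovl6 at 164. In 129 eWAT on the same diet the order began with Scd1, Thrsp and Fasn too, at 55301, 2828 and 1946. Elovl6 was the lowest of the 10 per kilobase in each of the 10 groups, between 14.7 in 129 on rosiglitazone and 181 in C57 iWAT.

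**Figure D1:**
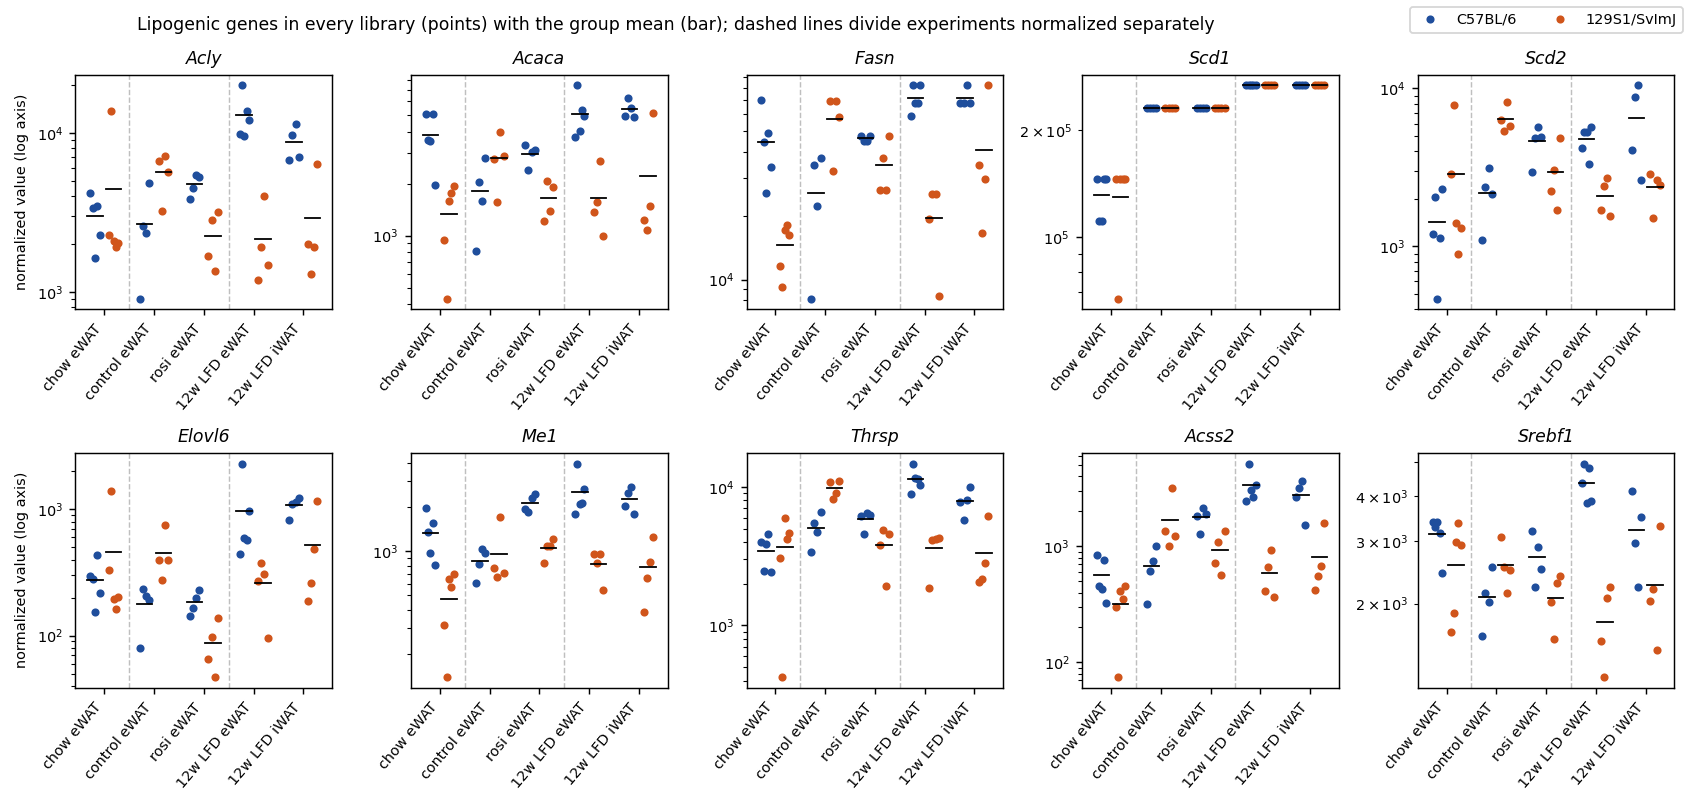
Normalized value of each of the 10 genes in every library (points, log axis) by experiment and strain, with the group mean as a bar; dashed lines divide experiments that were normalized separately. Scd1 sits at 231290 or 267214 in every library on low fat diet, the other 9 genes are lower in most 129 points than in C57 points after 12 weeks on low fat diet, and most are higher in 129 points on control diet.

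In eWAT after 12 weeks on low fat diet most of the lipogenic genes were lower in 129 than in C57. Acly, Acaca, Fasn, Scd2, Me1, Thrsp, Acss2 and Srebf1, 8 of the 10, were called lower and none higher, where 10.2% of all genes were called lower. Among genes with a mean of at least 50, 36.8% were called either way. Elovl6 did not pass the test, and Scd1 could not be read on these scores, while the authors' deposited table gives it as lower in C57 than in 129 (log2 -0.60). In all 9 genes other than Scd1 every 129 library lay below every C57 library, a pattern that 9.93% of all genes showed. The median log2 difference of the 9 genes was -1.72, against 0.00 over all genes.

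Acly, which supplies acetyl-CoA, had the largest difference of the 10. It was 9814, 19917, 9547, 13786 and 12016 in C57 and 1189, 1922, 3980 and 1480 in 129, 6.54-fold lower on this scale (log2 difference -2.71, SE 0.39, adjusted p = 0.00308). Acss2, the enzyme that activates acetate, was 2455, 5168, 3075, 2681 and 3402 in C57 and 411, 665, 936 and 368 in 129 (log2 difference -2.54, SE 0.34, adjusted p = 0.00231). In both genes the highest 129 library, replicate 3, was well under the lowest C57 library, and C57 replicate 2 was the highest of all. Acaca, the carboxylase of the committed step, was 3744, 7443, 4035, 5312 and 4943 in C57 and 1362, 1557, 2701 and 998 in 129 (log2 difference -1.68, SE 0.32, adjusted p = 0.010). Fasn was 58778, 82358, 67869, 67869 and 82358 in C57 and 19361, 25245, 25245 and 8365 in 129 (log2 difference -1.99, SE 0.34, adjusted p = 0.00626). 129 replicate 4 had the lowest value of both Acaca and Fasn. Me1, a source of NADPH, was 1798, 3980, 2094, 2152 and 2652 in C57 and 962, 838, 956 and 542 in 129 (log2 difference -1.60, SE 0.28, adjusted p = 0.00655).

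Of the genes that finish the fatty acid, Scd2 was called lower. Scd2 was 4182, 5339, 5339, 3319 and 5730 in C57 and 1705, 2410, 2701 and 1566 in 129 (log2 difference -1.20, SE 0.23, adjusted p = 0.0101). Elovl6 was 443, 2313, 593, 568 and 967 in C57 and 273, 374, 308 and 95 in 129, without overlap, but its wide spread left it above the threshold (log2 difference -1.77, SE 0.60, adjusted p = 0.0787). C57 replicate 2, at 2313, stood far above the other 4 C57 libraries. Thrsp was 8939, 14713, 11643, 11421 and 10268 in C57 and 1852, 4116, 4205 and 4275 in 129 (log2 difference -1.72, SE 0.29, adjusted p = 0.00562), with 129 replicate 1 lowest. Srebf1 was 4366, 4943, 3828, 4805 and 3877 in C57 and 1570, 1246, 2068 and 2227 in 129, 2.50-fold lower (log2 difference -1.32, SE 0.19, adjusted p = 0.00274). The adipocyte reference genes Adipoq, Plin1 and Pparg differed by -0.05, -0.32 and -0.02 and were not called (adjusted p 0.969, 0.258 and 1). The summed adipocyte markers were higher in every 129 library (204218 to 224488) than in any C57 library (185868 to 195470). The summed endothelial markers (5 genes) were 1631 to 2238 in 129 and 4096 to 4590 in C57, and their part in the result was not tested. The 8 calls held when any single library was left out.

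In iWAT on the same diet no lipogenic gene was called, and 6 of the 10 had an unadjusted p under 0.05, all lower in 129, as did 12.6% of all genes in either direction. Few genes were called in this comparison at all, 0.56% lower and 1.13% higher. The C57 iWAT libraries held 467 to 679 distinct values, with 32.1% to 37.7% of transcripts at the floor. In 129 iWAT these were 1615 to 1688 and 22.8% to 26.3%. The part of this coarser scale in the calls was not tested, and it cannot be told apart from strain here. Acly was 6767, 9749, 11346 and 7031 in C57 and 1994, 1298, 1906 and 6408 in 129 (log2 difference -1.84, SE 0.52, adjusted p = 0.204). Acaca was 4943, 6301, 5460 and 4851 in C57 and 1225, 1082, 1482 and 5130 in 129 (log2 difference -1.59, SE 0.51, adjusted p = 0.267). Fasn was 67869, 67869, 82358 and 67869 in C57 and 34576, 16663, 29720 and 82358 in 129 (log2 difference -1.05, SE 0.47, adjusted p = 0.453). In each of these 3 genes 129 replicate 4 stood far above the other 129 libraries, and only for Acly did it stay below every C57 library. Me1 was 2042, 2494, 2732 and 1802 in C57 and 387, 663, 850 and 1251 in 129, also without overlap (log2 difference -1.63, SE 0.37, adjusted p = 0.121), a pattern that 3.67% of all genes showed in this direction. Acss2 was 2649, 3169, 3645 and 1528 in C57 and 419, 553, 680 and 1588 in 129 (log2 difference -1.88, SE 0.49, adjusted p = 0.163). Thrsp was 7790, 5777, 7975 and 9949 in C57 and 2040, 2165, 2812 and 6189 in 129 (log2 difference -1.38, SE 0.39, adjusted p = 0.208). For Acss2 and Thrsp the groups overlapped by replicate 4 of 129 alone. Elovl6 was 820, 1114, 1148 and 1222 in C57 and 187, 259, 488 and 1163 in 129 (log2 difference -1.38, SE 0.58, adjusted p = 0.41). Scd2 was 4093, 8826, 10492 and 2637 in C57 and 2860, 1503, 2631 and 2449 in 129 (log2 difference -1.29, SE 0.50, adjusted p = 0.357), and its C57 libraries spread from 2637 to 10492. Srebf1 differed least, at 4144, 2968, 2227 and 3495 in C57 and 2036, 2195, 1480 and 3307 in 129 (log2 difference -0.53, SE 0.30, adjusted p = 0.572). The authors' deposited table gives smaller differences in iWAT, with C57 over 129 at 1.08 for Acly (p = 3.55e-04) and 0.15 for Srebf1 (p = 0.617).

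129 iWAT replicate 4 is one of the libraries with high brown fat and lymphocyte markers, and the part of other tissue in its lipogenic values was not tested. Without it, Acly (log2 difference -2.32, adjusted p = 0.0306), Acaca (-2.10, adjusted p = 0.00579) and Thrsp (-1.74, adjusted p = 0.0491) were called lower in 129 by limma. With replicate 4 of both strains left out, an alternative chosen after seeing the data, Acaca (-2.14, adjusted p = 0.0252) and Acss2 (-2.53, adjusted p = 0.0441) were called.

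Between the depots, iWAT against eWAT on the 12-week diet, no lipogenic gene was called in either strain. In C57, 13.1% of all genes were called, and none of the 10 had an unadjusted p under 0.05, against 26.1% of all genes. The C57 iWAT libraries held 467 to 679 distinct values, against 1691 to 1758 in C57 eWAT, so this coarser scale cannot be told apart from depot in C57. The log2 differences in C57 lay between -0.56 for Acly (95% interval -1.51 to 0.40) and 0.41 for Elovl6 (-0.85 to 1.66). Fasn was 71491 ± 7244 (SD, n = 4) in C57 iWAT and 71846 ± 10288 (SD, n = 5) in C57 eWAT, with an interval of -0.85 to 0.85, and Srebf1 differed by -0.47 (-0.98 to 0.04). In 129, where 1.72% of all genes were called, 1 of the 10 had an unadjusted p under 0.05, against 13.3% of all genes. This was Fasn, at 40829 ± 28700.5 (SD, n = 4) in iWAT and 19554 ± 7958 (SD, n = 4) in eWAT (log2 difference 0.94, SE 0.42, adjusted p = 0.346), and replicate 4 of iWAT, at 82358, was the high value. Without that library the Fasn difference was 0.52 (adjusted p = 0.702), Acly was at -0.17 in place of 0.31, and Acaca at -0.30 in place of 0.20. With all libraries, the others in 129 lay between -0.21 for Thrsp (-0.96 to 0.54) and 0.80 for Elovl6 (-0.53 to 2.12). For the strain by depot term none of the 10 was called, against 3.14% of all genes, and 1 had an unadjusted p under 0.05, against 16.1% of all genes. This was Srebf1 (log2 difference 0.79, SE 0.35, adjusted p = 0.274). Over the 4 groups, both C57 groups had a higher mean than both 129 groups in all 9 genes other than Scd1, an order that 18.6% of the 9794 genes with a mean of at least 50 showed. That order was picked from the 9 genes themselves, so the share is a description only. The intervals are wide, so they do not show that the depots are alike.

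In the drug experiment, the strain difference in eWAT on control diet ran the other way. Fasn, Scd2, Elovl6, Thrsp and Acss2, 5 of the 10, were called higher in 129 and none lower, where 10% of all genes were called higher. Among genes with a mean of at least 50, 34% were called either way. The median log2 difference of the 9 genes other than Scd1 was 1.26, against 0.01 over all genes. All 9 differences were above 0. Without C57 control replicate 1 the median was 0.82 and 8 of the 9 were above 0. In the full set 4 of the 9 had no overlap between the groups, with 129 higher, as 9.91% of all genes did.

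Scd2 was 1093, 2378, 3153 and 2132 in C57 and 6303, 5410, 8225 and 5818 in 129, 3.11-fold higher (log2 difference 1.64, SE 0.35, adjusted p = 0.00579). Elovl6 was 79, 236, 206 and 190 in C57 and 395, 275, 749 and 397 in 129 (log2 difference 1.36, SE 0.40, adjusted p = 0.0312). Thrsp was 3361, 5492, 4744 and 6617 in C57 and 10750, 8225, 8951 and 11028 in 129 (log2 difference 0.98, SE 0.26, adjusted p = 0.0182). Every 129 library was above every C57 library for these 3 genes. Acss2 was 321, 619, 753 and 997 in C57 and 1368, 1005, 3187 and 1220 in 129, also apart (log2 difference 1.29, SE 0.41, adjusted p = 0.0466), with 129 replicate 3 far above the rest. Fasn was 8131, 34653, 22134 and 37581 in C57 and 69086, 32609, 69086 and 58431 in 129 (log2 difference 1.32, SE 0.42, adjusted p = 0.0446). 129 replicate 2 overlapped the C57 range of Fasn, and C57 replicate 1 was the lowest library by a wide margin.

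Acly, Acaca, Me1 and Srebf1 did not pass the test on this diet. Acly was 906, 2596, 2344 and 4832 in C57 and 6617, 3226, 7164 and 5706 in 129 (log2 difference 1.26, SE 0.44, adjusted p = 0.0719). Acaca was 819, 2034, 1584 and 2799 in C57 and 2781, 1570, 3992 and 2897 in 129 (log2 difference 0.69, SE 0.35, adjusted p = 0.218). Me1 was 604, 818, 1032 and 971 in C57 and 775, 664, 1713 and 716 in 129 (log2 difference 0.09, SE 0.26, adjusted p = 0.903). Srebf1 was 1627, 2149, 2021 and 2539 in C57 and 3081, 2539, 2146 and 2479 in 129 (log2 difference 0.30, SE 0.15, adjusted p = 0.179). In all 4 genes the groups overlapped, and Me1 was nearly level except for 129 replicate 3.

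C57 control replicate 1 was below its group mean in all 9 genes, by 0.89 log2 on average. Its mesothelial markers summed to 292 against 649 to 2294 in the other 3 C57 control libraries. Its Adipoq (18383 against 13828 to 15186) and Lep (13106 against 5176 to 9311) were the highest of the group, while its Plin1 (7128) lay within the range of the others. The part of these in the values was not tested. Without this library, Fasn (0.84, adjusted p = 0.048), Scd2 (1.33, adjusted p = 0.0113) and Thrsp (0.80, adjusted p = 0.0476) stayed called by limma. Elovl6 (1.01, adjusted p = 0.0685) and Acss2 (0.97, adjusted p = 0.112) did not. Among the genes that were not called, Acly was at 0.82 without it, Acaca at 0.36, Srebf1 at 0.19 and Me1 at -0.07. Scd2 and Thrsp were called in all 8 fits that left out 1 library. The Fasn call was lost without 129 control replicate 1, 3 or 4 or C57 control replicate 3 (adjusted p 0.0866 to 0.111). The Elovl6 call was lost without 129 control replicate 1, 3 or 4 or C57 control replicate 1 (adjusted p 0.054 to 0.0878), and the Acss2 call without 129 control replicate 1, 3 or 4 or C57 control replicate 1, 2 or 3 (adjusted p 0.0582 to 0.118). Acly was called without 129 control replicate 2 (1.51, adjusted p = 0.0457) or C57 control replicate 4 (1.62, adjusted p = 0.0173). Plin1 and Pparg were also higher in 129 on this diet, by 0.48 (adjusted p = 0.00336) and 0.35 (adjusted p = 0.0166), and Adipoq differed by -0.11 (adjusted p = 0.617). The summed adipocyte markers overlapped between the strains, at 156299 to 179221 in 129 and 154246 to 177662 in C57, while the endothelial sums were again lower in 129, at 1835 to 2358 against 2995 to 4711.

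The control and 12-week comparisons both set 129 against C57 in eWAT on D12450B, with different libraries and separate normalization. By the labels the control mice ate this diet from 6 to 18 weeks of age, which is also 12 weeks. The names of the 2 comparisons therefore mark no difference in diet or in its stated length. Fasn, Scd2, Thrsp and Acss2 were called higher in 129 in the first and lower in 129 in the second. Over all genes, 183 were called in that pair of directions, 7.99% of the 2290 called higher on control diet and 7.86% of the 2327 called lower after 12 weeks. Another 673 genes were higher in both, 29.4% and 25.4% of the respective lists, and 665 were lower in both. Among the latter kinds were Elovl7, a fatty acid elongase, higher in 129 by 2.67 on control diet and 3.56 after 12 weeks, and Abcg1, a sterol transporter and LXR target, lower by -1.61 and -1.23. The difference between the 2 experiments was not tested, since the tables were not normalized together.

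**Figure D2:**
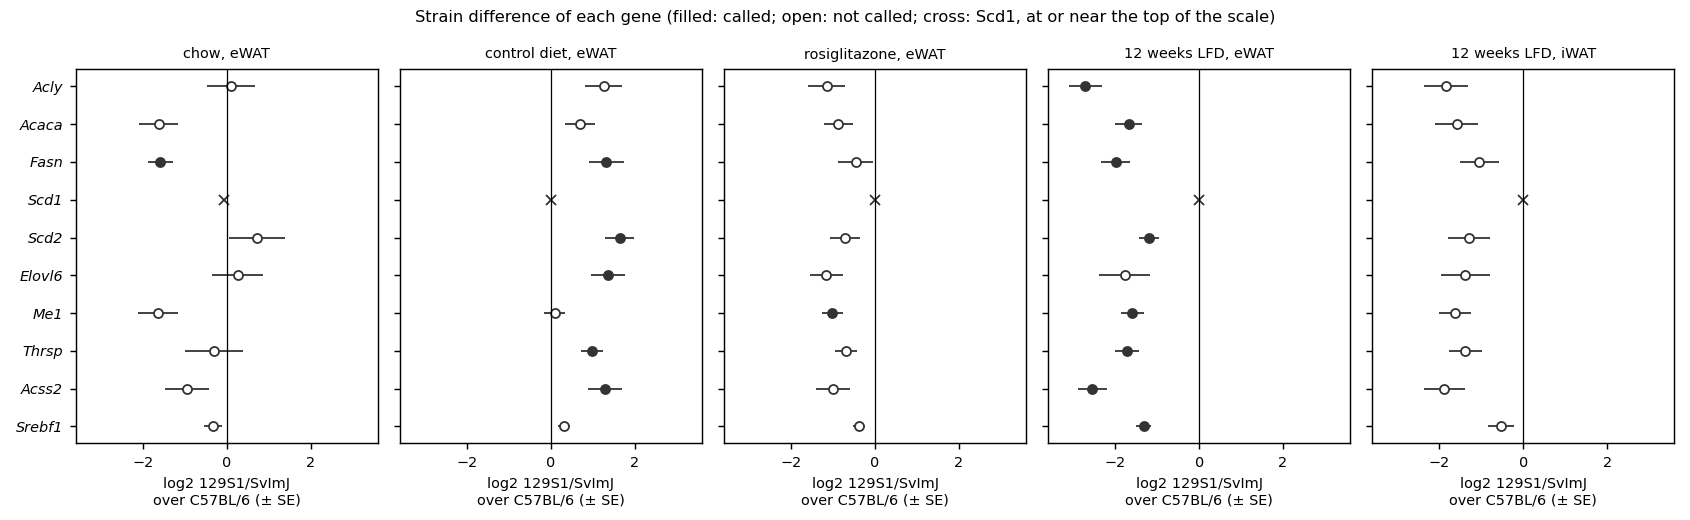
Log2 difference 129S1/SvImJ over C57BL/6 (± SE) of each gene in the 5 strain comparisons, filled where limma's adjusted p was under 0.05 and open where not; the cross marks Scd1 at the top of the scale. Points lie right of 0 on control diet and left of 0 on rosiglitazone and after 12 weeks on low fat diet, and they are mixed on chow.

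Lipogenic values were higher on rosiglitazone in C57 and lower in 129 by their median, but few genes passed the test. In C57, Me1 was the only one of the 10 that was called, and it rose, where 1.53% of all genes were called higher. In 129, Elovl6 and Thrsp fell and none rose, where 2.56% of all genes were called lower. Among genes with a mean of at least 50, 5.43% were called either way in C57 and 11.9% in 129. The authors' deposited table gives C57 drug responses of 1.54 for Acss2 (p = 1.39e-09), 1.25 for Scd2 (p = 5.5e-07) and 0.12 for Elovl6 (p = 0.654). Whether those p-values are adjusted is not stated in the labels. In limma fits of only the 2 groups compared, the Me1 call in C57 was lost (adjusted p = 0.0599), as was the Thrsp call in 129 (adjusted p = 0.0556). The median log2 difference of the 9 genes other than Scd1 was 1.06 in C57 and -0.79 in 129, and all 9 were above 0 in C57 while 8 of 9 were below 0 in 129. Without C57 control replicate 1, the low library of that group, the C57 median was 0.59 and 8 of 9 were above 0, with Elovl6 at -0.21, Thrsp at 0.06, Fasn at 0.59 and Acly at 0.62. Me1 stayed called without it (1.18, adjusted p = 0.0267, limma). The same control libraries serve the drug responses and the control diet strain comparison, so these are not independent of each other.

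Me1 was 604, 818, 1032 and 971 on control diet and 1943, 1852, 2302 and 2448 on rosiglitazone in C57, 2.53-fold higher (log2 difference 1.34, SE 0.26, adjusted p = 0.011). The groups did not overlap, as was so for 3.5% of all genes with the drug group higher. In 129 Me1 was 775, 664, 1713 and 716 on control diet and 834, 1092, 1093 and 1216 on rosiglitazone (log2 difference 0.23, SE 0.26, adjusted p = 0.728), where replicate 3 of the control group was the highest, and without that library the difference was 0.55 (adjusted p = 0.0491, called higher). Elovl6 was 395, 275, 749 and 397 on control diet and 65, 98, 47 and 139 on rosiglitazone in 129, 5.22-fold lower without overlap (log2 difference -2.38, SE 0.40, adjusted p = 0.00258). In C57 Elovl6 was 142, 165, 199 and 230 on rosiglitazone, within the spread of its controls (log2 difference 0.14, SE 0.40, adjusted p = 0.965). Thrsp was 10750, 8225, 8951 and 11028 on control diet and 3785, 4885, 1935 and 4543 on rosiglitazone in 129, 2.71-fold lower (log2 difference -1.44, SE 0.26, adjusted p = 0.00387). Here too the groups were apart, as they were for 5.09% of all genes with the drug group lower. In C57 Thrsp was 6133, 4543, 6457 and 6259 on rosiglitazone, overlapping its controls (log2 difference 0.24, SE 0.26, adjusted p = 0.769).

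Acss2 on rosiglitazone was 1821, 1288, 2122 and 1908 in C57, above every C57 control library and 2.82-fold higher (SE 0.41 on the log2 scale, adjusted p = 0.0832). It was 718, 1085, 562 and 1346 in 129 (log2 difference -0.79, SE 0.41, adjusted p = 0.354). Neither passed the test, and in 129 the drug and control values overlapped. Fasn on rosiglitazone was 47712, 44852, 44852 and 47712 in C57, above every control (log2 difference 1.07, SE 0.42, adjusted p = 0.251), and 26525, 37581, 26525 and 47712 in 129, overlapping its controls (log2 difference -0.71, SE 0.42, adjusted p = 0.429). Acly was 3845, 4519, 5465 and 5301 in C57 (log2 difference 1.06, SE 0.44, adjusted p = 0.297) and 1689, 2821, 1344 and 3187 in 129, below every 129 control (log2 difference -1.35, SE 0.44, adjusted p = 0.109). Acaca was 3361, 2387, 3034 and 3131 in C57 (log2 difference 0.84, SE 0.35, adjusted p = 0.29) and 1213, 2081, 1390 and 1918 in 129 (log2 difference -0.73, SE 0.35, adjusted p = 0.305). For Acaca and Acly the C57 drug libraries overlapped the C57 controls, and for Acaca the 129 groups overlapped too. Scd2 was 2942, 4885, 5685 and 4959 in C57, overlapping its controls (log2 difference 1.13, SE 0.35, adjusted p = 0.133), and 2239, 3060, 1691 and 4885 in 129, below every 129 control (log2 difference -1.21, SE 0.35, adjusted p = 0.0681). Scd2 was called lower in 129 without 129 rosiglitazone replicate 4 (-1.49, adjusted p = 0.0203). Srebf1 was 3187, 2220, 2874 and 2508 in C57 (log2 difference 0.38, SE 0.15, adjusted p = 0.22) and 2021, 1594, 2288 and 2387 in 129 (log2 difference -0.31, SE 0.15, adjusted p = 0.274), and both overlapped their controls.

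The difference between the drug responses, 129 minus C57, was negative in all 9 genes other than Scd1, with a median of -1.78 against -0.02 over all genes. None of the 10 was called, where 0.21% of all genes were called, and all 9 had an unadjusted p under 0.05, as did 9.9% of all genes. The largest were Elovl6 (log2 difference -2.52, SE 0.57, adjusted p = 0.111), Acly (log2 difference -2.41, SE 0.63, adjusted p = 0.167), Scd2 (log2 difference -2.35, SE 0.50, adjusted p = 0.097) and Acss2 (log2 difference -2.29, SE 0.58, adjusted p = 0.154). Fasn, Thrsp, Acaca and Me1 stood at -1.78, -1.68, -1.57 and -1.10 (adjusted p 0.292, 0.103, 0.266 and 0.274), and Srebf1 at -0.69 (adjusted p = 0.20). Leaving out 129 rosiglitazone replicate 4 brought Scd2 past the threshold (-2.62, adjusted p = 0.0357), and leaving out replicate 3 did so for Thrsp (-1.38, adjusted p = 0.0438). Without C57 control replicate 1, the low library, the median was -1.49 and all 9 stayed below 0, with Fasn at -1.31 and Acly at -1.97. None was called in that limma fit (adjusted p 0.123 to 0.387). In 8 of the 9 genes the C57 rosiglitazone and 129 control groups had the 2 highest means of the 4 groups, an order shown by 6.35% of the 8979 genes with a mean of at least 50. Me1 was the exception, with both rosiglitazone groups highest. The order was picked from these same genes, which share libraries and tend to vary together, so the share of 6.35% is a description only.

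**Figure D3:**
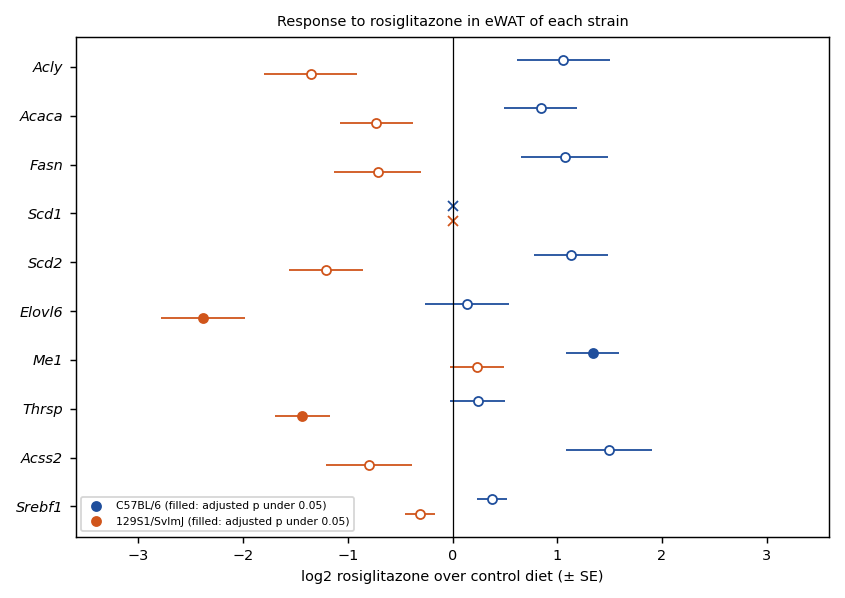
Log2 difference of rosiglitazone over control diet (± SE) for each gene in C57BL/6 (blue) and 129S1/SvImJ (orange) eWAT, filled where limma's adjusted p was under 0.05; the crosses mark Scd1, at the top of the scale in all 16 libraries. Blue points lie at or right of 0 and orange points left of 0 for every gene but Me1 and Scd1, and the filled points are Me1 in C57 and Elovl6 and Thrsp in 129.

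Other measures also moved with the drug. The summed adipocyte markers were 156299 to 179221 on control diet and 205218 to 230038 on rosiglitazone in 129, and 154246 to 177662 and 172085 to 196309 in C57. Not every marker in this sum rose. In 129, Plin1 was 10046 to 11674 on control diet and 8426 to 9097 on rosiglitazone, while Adipoq overlapped, at 13828 to 15186 and 12430 to 17219. The summed brown fat markers (5 genes, Elovl3 among them) were 185 to 303 on control diet and 930 to 1988 on rosiglitazone in 129, and 67 to 98 and 162 to 212 in C57. Pparg itself fell in 129 by 0.49 on the log2 scale (adjusted p = 0.00408) and differed by 0.03 in C57 (adjusted p = 0.987). The summed macrophage markers were 3130 to 4541 on control diet and 1871 to 3059 on rosiglitazone in 129, and 2736 to 5744 and 1627 to 3904 in C57. The part of these in the lipogenic values was not tested.

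Between the strains on rosiglitazone, all 9 genes other than Scd1 were lower in 129, with a median log2 difference of -0.87 against 0.00 over all genes. Me1 alone was called (log2 difference -1.02, SE 0.26, adjusted p = 0.0189), where 5.23% of all genes were called lower. Among genes with a mean of at least 50, 19.8% were called either way. Acly (log2 difference -1.16, SE 0.44, adjusted p = 0.128), Acaca (log2 difference -0.87, SE 0.35, adjusted p = 0.144), Elovl6 (log2 difference -1.16, SE 0.40, adjusted p = 0.0867) and Me1 had no overlap between the strains, as 6.34% of all genes did in that direction. Acss2 was 1785 ± 354 (SD, n = 4) in C57 and 928 ± 355 (SD, n = 4) in 129 (adjusted p = 0.157). Scd2, Thrsp, Fasn and Srebf1 stood at -0.71, -0.70, -0.46 and -0.38 (adjusted p 0.26, 0.116, 0.591 and 0.104), and in each of these 5 genes the highest 129 library reached the C57 range. The Me1 call was lost without 129 rosiglitazone replicate 1 (-0.91, adjusted p = 0.0669) or C57 rosiglitazone replicate 4 (-0.95, adjusted p = 0.0512), and Elovl6 was called without 129 rosiglitazone replicate 4 (-1.42, adjusted p = 0.0456). 129 replicate 4 was above its group mean in all 9 genes, by 0.48 log2 on average.

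On chow the genes split. Fasn was the only one called, lower in 129, where 2.61% of all genes were called lower. It was 70020, 44622, 25444, 49161 and 33942 in C57 and 11641, 9270, 17176, 18105 and 16248 in 129, 3.00-fold lower without overlap (log2 difference -1.59, SE 0.30, adjusted p = 0.0217). Acaca was 5071, 3559, 3529, 5071 and 1955 in C57 and 949, 431, 1597, 1764 and 1944 in 129 (log2 difference -1.63, SE 0.46, adjusted p = 0.0932). Me1 was 1967, 1349, 980, 1554 and 812 in C57 and 313, 139, 647, 569 and 704 in 129 (log2 difference -1.63, SE 0.48, adjusted p = 0.103). Both were also lower in every 129 library than in any C57 library, as 4% of all genes were, without passing the test. Acss2 was 837, 454, 433, 768 and 326 in C57 and 301, 75, 413, 353 and 455 in 129 (log2 difference -0.95, SE 0.52, adjusted p = 0.435), with overlap. The summed endothelial markers were 637 to 3132 in 129 and 3386 to 5037 in C57 on chow, and the mesothelial markers (4 genes) 716 to 2343 against 185 to 672, without overlap in either list. Their part in these differences was not tested.

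The other genes did not pass the test on chow, and their groups overlapped. Acly was 4175, 3372, 1639, 3448 and 2285 in C57 and 2283, 13706, 2102, 1902 and 2036 in 129 (log2 difference 0.10, SE 0.58, adjusted p = 1). Scd2 was 1201, 2053, 466, 1122 and 2301 in C57 and 2855, 7883, 1408, 893 and 1309 in 129 (log2 difference 0.73, SE 0.67, adjusted p = 0.666). Elovl6 was 298, 281, 155, 434 and 216 in C57 and 332, 1405, 195, 161 and 203 in 129 (log2 difference 0.26, SE 0.60, adjusted p = 0.926). In these 3 genes 129 replicate 2, the library with few adipocyte and many epididymis transcripts, was by far the highest. Thrsp was 4016, 2454, 3855, 4558 and 2435 in C57 and 3078, 425, 5924, 4188 and 4667 in 129 (log2 difference -0.29, SE 0.69, adjusted p = 0.927). The authors' deposited table gives Thrsp as higher in 129 on chow, with C57 over 129 at -0.29 (p = 0.526). Srebf1 was 3396, 3273, 3391, 3160 and 2443 in C57 and 1667, 1879, 2985, 3376 and 2926 in 129 (log2 difference -0.33, SE 0.21, adjusted p = 0.528). The same library was the lowest of 129 for Thrsp, Acaca, Fasn, Me1 and Acss2, so it parted the genes into a high and a low set. Without it, Thrsp differed by 0.38 (adjusted p = 0.479), Acly by -0.45 (adjusted p = 0.392) and Fasn by -1.44 (adjusted p = 0.0224, limma). Also without it, Elovl6 was at -0.28, Scd2 at 0.24, Acss2 at -0.49, Acaca at -1.27 and Me1 at -1.25, so that 7 of the 9 genes were below 0 in place of 6. With both 129 chow replicates that held epididymis transcripts left out, Fasn was at -1.30 (adjusted p = 0.0506), and the call was also lost without 129 replicate 1, C57 replicate 2 or C57 replicate 4 alone (adjusted p 0.0538 to 0.0594).

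Within groups, the genes tended to go up and down together from library to library. Over the 43 libraries, the deviations from the group mean gave a median Pearson r of 0.33 for the 36 pairs of the 9 genes other than Scd1, from -0.45 to 0.89, and 14 pairs were above 0.5. Without 129 chow replicate 2 the median over 42 libraries was 0.56, from -0.40 to 0.86, with 20 pairs above 0.5. Over all 43 libraries, the median r of 9841 other genes with the mean of the 9 genes was 0.03. This sets single genes against a mean, so it is not a like measure to the medians of pairs. The points share libraries and normalization, so r is given as a description. The closest pairs without that library were Acaca with Acss2 (0.86), Me1 with Acss2 (0.84) and Acaca with Fasn (0.84). Srebf1 stood apart, with 0.26 for Fasn, 0.47 for Acaca and -0.40 for Scd2, as did Scd2 with Thrsp (-0.02). All 9 genes were above their group mean in 129 iWAT replicate 4 (by 1.05 log2 on average), C57 12-week eWAT replicate 2 (0.57), 129 12-week eWAT replicate 3 (0.52), C57 control replicate 4 (0.50) and 129 rosiglitazone replicate 4 (0.48). All 9 were below it in C57 control replicate 1 (-0.89) and in 129 control replicate 2 (-0.49).

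**Figure D4:**
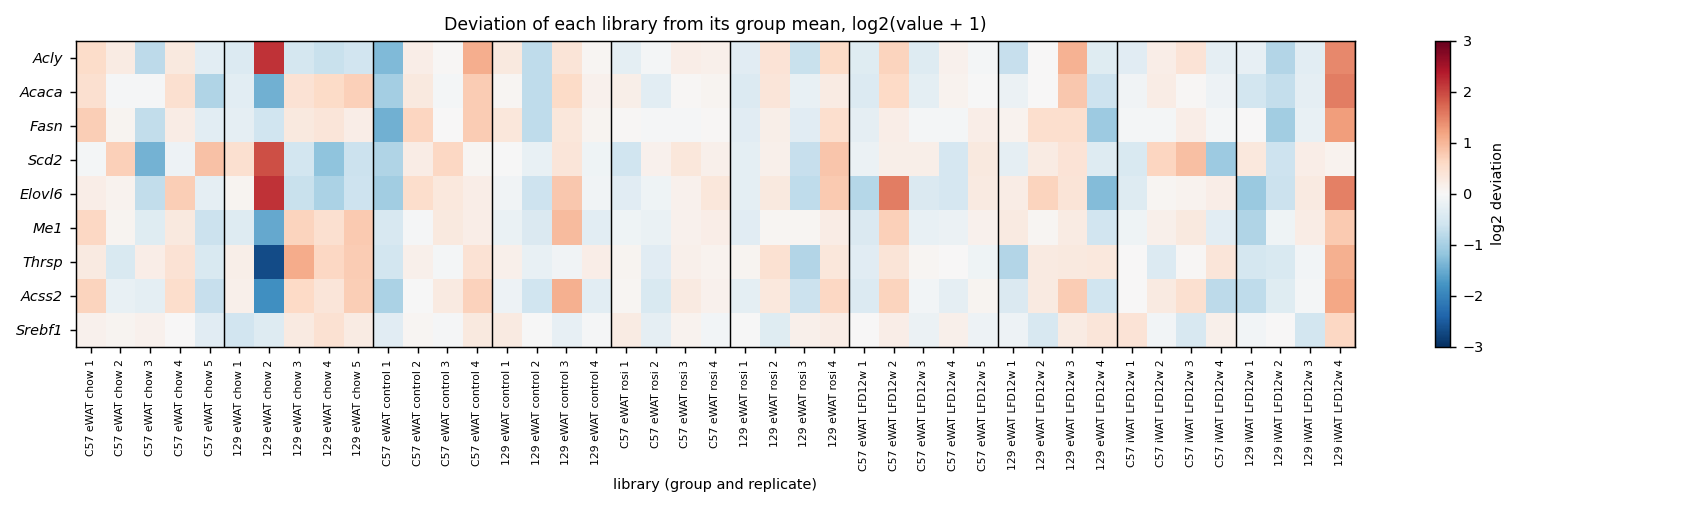
Deviation of each library (columns, by group and replicate) from its group mean in log2(value + 1) for the 9 genes other than Scd1 (rows); red is above and blue below the group mean, and vertical lines divide groups. 129 chow replicate 2 has both the strongest reds and the strongest blues, 129 iWAT replicate 4 is red in all 9 genes, and C57 control replicate 1 is blue in all 9.

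Genes around the pathway were read from lists of known function. Among genes with a mean of at least 50, 34% were called either way on control diet and 36.8% after 12 weeks in eWAT. These shares are above those over all genes, and list counts near them do not set a list apart from such genes. Of 8 genes of citrate and acetyl-CoA supply, 3 were higher in 129 on control diet and none lower, Slc25a1 (1.02), the mitochondrial citrate exporter, Aco1 (0.48) and Cs (0.42), where 17.5% of all genes were called either way. After 12 weeks 3 of the 8 were lower in 129 eWAT and 1 higher, with Slc25a1 at -1.37 and Pcx, pyruvate carboxylase, at -1.32 among the lower and Slc16a1, a monocarboxylate transporter, at 0.87, where 21.7% of all genes were called. In C57 rosiglitazone raised Slc25a1 by 0.99 and Cs by 0.59, and in 129, where 2.96% of all genes were called higher, it raised Cs by 0.51. Of 10 genes of the pentose phosphate pathway and of cytosolic NADPH supply, 7 were higher in 129 on control diet and none lower. Among these were Taldo1 at 0.85, Idh1 at 0.72 and Rpe at 0.59, and not every gene of the list encodes an enzyme that makes NADPH. After 12 weeks 3 of the 10 were lower in 129 eWAT and none higher, Pgls (-0.72), Aldh1l1 (-1.79) and Tkt (-1.60). The list medians were 0.54 on control diet and -0.27 after 12 weeks, against 0.01 and 0.00 over all genes.

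Of 15 other genes of synthesis, elongation and desaturation, 6 were higher and 1 lower in 129 on control diet, and 3 were higher and 3 lower after 12 weeks in eWAT, where 17.5% and 21.7% of all genes were called in either direction. Mid1ip1, which encodes the partner protein of Thrsp, was at 1.27 on control diet and -1.41 after 12 weeks, both called. Tecr, the reductase of the elongation cycle, was at 0.89 on control diet. Rosiglitazone lowered Mid1ip1 in 129 by 1.05 (adjusted p = 0.00098, limma), and the difference between the strains' drug responses was called for it (log2 difference -1.67, SE 0.26, adjusted p = 0.00558) and for Tecr (log2 difference -0.81, SE 0.16, adjusted p = 0.0384). The elongase Elovl3, a gene of thermogenic fat, rose with rosiglitazone in both strains, by 2.74 in C57 and 4.81 in 129, opposite to Elovl6 in 129. Hsd17b12, the ketoreductase of elongation, rose by 1.25 and 1.09. The control libraries are shared with the control diet comparison here as well.

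Among 17 regulators, 3 were higher and 2 lower in 129 on control diet, and 2 were higher and 3 lower after 12 weeks in eWAT, against 17.5% and 21.7% of all genes called either way. Insig1, the sterol sensor that holds SREBP in the endoplasmic reticulum and is itself an SREBP target, was at 1.11 on control diet and rose with rosiglitazone in C57 by 1.69. Mlxipl, which encodes ChREBP, was lower in 129 by 0.94 after 12 weeks (adjusted p = 0.00707) and by 0.58 on rosiglitazone (adjusted p = 0.0352), and differed by -0.11 on control diet (adjusted p = 0.753, limma). Scap, the SREBP escort, was at -0.48 and Mbtps2, a protease that releases SREBP, at 1.08 after 12 weeks. Of 8 brakes on acetyl-CoA carboxylase, the AMPK subunits, Stk11 and Mlycd, 1 was lower on control diet and 2 were higher and 1 lower after 12 weeks, beside the same shares of all genes. Prkaa1, a catalytic AMPK subunit, was at 0.48 and Stk11, its upstream kinase LKB1, at -0.66.

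Of 10 other targets of SREBP-1, ChREBP or LXR, 2 were higher and 4 lower in 129 on control diet, and 1 was higher and 5 lower after 12 weeks in eWAT, with 17.5% and 21.7% of all genes called either way. Pnpla3, known as a SREBP-1 and ChREBP target, was at 1.38 on control diet, and Aacs, acetoacetyl-CoA synthetase, at -1.43 in eWAT and -1.35 in iWAT after 12 weeks. The LXR targets Abcg1 and Mylip were lower in 129 on control diet and after 12 weeks in eWAT, Abcg1 by the values above and Mylip by 0.74 and 0.80.

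Among the genes outside the set whose group means were most like the mean profile of the 10 genes over the 10 groups, the root mean square log2 difference was 0.220 for Lrfn4, 0.242 for F630110N24Rik, 0.242 for Mvd, an enzyme of sterol synthesis, and 0.249 for Dbp, a clock output gene, where the median over 11733 genes was 0.593. Of the 10 genes themselves, Thrsp (0.234) and Srebf1 (0.247) were nearest to their mean profile, with 2 and 5 genes of all those compared closer. Elovl6 (0.442) and Scd1 (0.544) were farthest, with 527 and 3363 genes closer, and Scd1 has no variation to show in 8 of these groups.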

How the data were processed

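White fat RNA-seq libraries of C57BL/6 and 129S1/SvImJ mice were grouped by the labels (43 of 49 samples, of which 5 F1 and 1 GRO-seq sample are not analysed here). The members and the gene lists were chosen with earlier results of these data known. Per the submitters' processing notes, HOMER and the build mm9 were used. The normalization step is not stated in the labels. The authors deposited 5 tables of 28644 transcripts with whole-number normalized values, treated here as a score, because libraries share their highest values and none is under 1. Of the highest 1000 sorted values, 57.3% were equal in a pair of libraries compared in the drug tables and 60% in a pair compared in the 12-week tables. The depth is therefore unknown, and the library sums of 5537632 to 7526303 are not read counts. The authors also deposited log2 fold changes and p-values, which are quoted for Scd1 and in a few places for other genes. They can differ from the values here in size and, for Thrsp on chow, in sign. Whether those p-values are adjusted is not stated in the labels. The 8 control libraries stand in both drug tables with equal values.

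The transcript with the highest total represented each of 22869 symbols. Differences of log2(value + 1) were tested with limma 3.58.1 (R 4.3.3, trend and robust settings, two-sided, Benjamini-Hochberg over all genes, called under 0.05) in 11 comparisons, with 1 fit each for chow (10 libraries), the drug experiment (16), 12-week eWAT (9), 12-week iWAT (8) and the depots (17). The limma settings were also checked on simulated negative binomial counts with the gene means of these data. That simulation held no library that stood apart, so it does not cover the uneven spread of these groups. All 10 members were named, from each pathway list up to 3 called genes of smallest p per comparison, the 5 genes with the most similar group means among those with a mean of at least 50, and 3 adipocyte reference genes. Of the pathway lists, those genes with comparisons that bear on the members are printed, and some that the rule names are not reported here. Alternatives were a pseudocount of 8, a filter of mean at least 10, rescaling to equal medians, plain moderation, array weights, a replicate block, sums over transcripts, fits of 2 groups, and each library or a few libraries left out. Coordinates and promoters are from RefSeq (GRCm38.p6), matched by symbol, and none were taken in mm9.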

Additional observations from a re-analysis of the deposited data

Results flagged for a closer look

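In 12 of 90 groups of 4 or 5 libraries, 1 library stood apart from the rest of its group, measured as its gap to the nearest library over the range of the group. The cutoffs used would set a library apart in about 1 in 20 groups of independent, normally spread values. These scores were not put on the log2 scale, some are tied, and the genes share libraries. The count of 12 in 90 can therefore not be set against that rate. In 129 chow replicate 2 Acly (0.968), Scd2 (0.719) and Elovl6 (0.863) were high. In 129 iWAT replicate 4 Acly (0.864) and Acaca (0.901) were high, and in 129 control replicate 3 Me1 (0.894) and Acss2 (0.834). Elovl6 was high in C57 12-week eWAT replicate 2 (0.72). Fasn was high in C57 iWAT replicate 3, where the ratio is 1 because the other 3 libraries share 1 value. The low libraries were C57 rosiglitazone replicate 2 for Thrsp (0.831), 129 12-week eWAT replicate 1 for Thrsp (0.934) and C57 chow replicate 5 for Srebf1 (0.752).

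For 4 genes every 129 library lay above every C57 library on control diet and below every C57 library in 12-week eWAT. The log2 differences on control diet exceeded those after 12 weeks by 2.83 for Scd2, 3.14 for Elovl6, 2.69 for Thrsp and 3.83 for Acss2. This contrast between the 2 experiments was not tested, because their tables were normalized separately.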

How the results depend on the processing

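No member that was called in a comparison or under an alternative changed sign, while 63 of 1970 values under the alternatives did so among results that were not called. Rescaling moved the median of all genes by at most 0.02 on the log2 scale. With a filter of mean at least 10, called members went from 1 to 2 on chow, from 1 to 2 for rosiglitazone in C57 and from 0 to 1 in iWAT. With array weights they went from 1 to 3 on chow and from 1 to 2 between strains on rosiglitazone. Fits of 2 groups gave 2 in place of 5 on control diet, 0 in place of 1 for rosiglitazone in C57 (Me1, adjusted p = 0.0599) and 1 in place of 2 in 129 (Thrsp, adjusted p = 0.0556, limma). Without 129 chow replicates 1 and 2, 0 were called on chow, and without both iWAT replicates 4, 2 were called in iWAT. Leaving out 1 library gave 0 to 1 called members on chow, 2 to 6 on control diet, 0 to 2 between strains on rosiglitazone, 1 to 1 for rosiglitazone in C57, 2 to 3 in 129, 0 to 1 for the difference of drug responses, 8 to 8 in 12-week eWAT and 0 to 3 in iWAT. The depot comparisons and the strain by depot term had 0 called members under every alternative run. The number of libraries and the shared top values limit what these scores can show, and depth is unknown.

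Over all genes, chow calls went from 1142 to 3690 with array weights and 2597 without 129 replicates 1 and 2. Calls between strains on rosiglitazone went from 2443 to 1407 in a fit of 2 groups, and those for rosiglitazone in C57 from 556 to 368 with plain moderation and 73 in a fit of 2 groups. The 48 calls for the difference of drug responses became 7 with plain moderation, 84 with array weights and 31 with summed transcripts. The 387 iWAT calls became 220 with a pseudocount of 8, 238 with the filter, 584 with array weights, 164 with summed transcripts and 102 without both replicates 4, and the 393 depot calls in 129 became 211 in a fit of 2 groups. Leaving out 1 library gave 655 to 2564 calls on chow, 3132 to 4072 on control diet, 1614 to 2664 between strains on rosiglitazone, 275 to 741 for the drug in C57, 788 to 1158 in 129, 14 to 113 for the difference of responses, 3853 to 5123 in eWAT, 68 to 194 in iWAT, 2226 to 3130 for the depots in C57, 231 to 435 in 129 and 424 to 1122 for strain by depot.

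Groups share replicate numbers, but nothing in the labels ties libraries of 1 number together. Correlations of same-numbered libraries' deviations ran from -0.49 to 0.49 on chow and from -0.16 to 0.52 in iWAT, so the numbers were not taken to pair libraries. Of the 8 or 10 libraries of a comparison, 0 to 4 correlated best with their own number. With the replicate number as a block, 0 members were called on chow, 3 on control diet and 3 in 12-week eWAT, and the calls over all genes were 252 on chow, 1277 in eWAT, 30 in iWAT, 256 for the depots in 129 and 220 for strain by depot.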
